A study of Arabidopsis thaliana with 10 samples.

Results

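Vacuolar processing enzymes and papain-like proteases were followed in leaves of Arabidopsis thaliana through 5 genes: ALPHA-VPE (AT2G25940), BETA-VPE (AT1G62710), GAMMA-VPE (AT4G32940), CATHB3 (AT4G01610) and RD19C (AT4G16190). They were chosen by name as the probe sets that name exactly 1 of these genes, which gave 5 of the 22810 probe sets of the array, 1 for each gene, or 5 of the 13286 genes that a probe set names alone. The choice was made with earlier results of these data known, so counts of these genes beside all probe sets are descriptive. The tests took in the 12184 probe sets that reached a signal of 50 on 2 arrays or more, and all 5 genes were among them. ALPHA-VPE passed this filter only through the NahG arrays, and BETA-VPE only through arrays of stage 6.0.

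Vacuolar processing enzymes are legumain-type cysteine proteases that cut proteins after asparagine or aspartate residues, and many vacuolar proteins are made as precursors that need this cut. ALPHA-VPE and GAMMA-VPE are known from vegetative organs, and BETA-VPE is known chiefly for processing seed storage proteins. Papain-like cysteine proteases are a separate family that degrades proteins in the vacuole and related compartments during leaf senescence: CATHB3 is a cathepsin B-like member, and RD19C is related to RD19, a protease first described in dehydrated plants.

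The arrays form 5 groups of 2, all of fully expanded leaves from plants on compost in a growth room. The groups are NahG, ein2, coi1 and wild type (WT) plants at developmental stage 6.0, and WT plants at stage 3.9. NahG encodes a salicylate hydroxylase of bacterial origin, an enzyme that destroys salicylic acid. EIN2 is needed for ethylene signalling and COI1 is the jasmonate co-receptor. The labels call the background of the 3 lines Columbia and all 3 lines transgenic. They give no promoter for NahG, no alleles for ein2 and coi1, the same stock code (N3071) for both of these, and none for NahG. In each WT group array 1 carries stock N933 and array 2 stock N1644, and the labels name the N1644 plants Col-5 at stage 3.9 and Col-0 at stage 6.0. No group of the 3 lines was measured at stage 3.9. No probe set is named EIN2 or COI1 here, and the genotypes were not checked on the arrays.

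Arrays of 1 group correlated at 0.941 to 0.977 over the tested probe sets, and arrays of stage 6.0 with arrays of stage 3.9 at 0.70 to 0.772. Between 9738 and 10835 probe sets per array had a signal of 50 or more. The ratio of 3′ to 5′ ubiquitin control signals was 1.34 and 1.30 on the WT stage 6.0 arrays, against 2.12 and 2.24 on the WT stage 3.9 arrays, and 1.38 to 1.66 in the other groups. Actin ratios were 2.08 and 1.77 in WT stage 6.0, against 2.43 and 2.70 in WT stage 3.9, and 1.54 to 2.60 in the other groups. GAPDH ratios went the other way, at 1.17 and 1.02 against 0.97 and 0.96, and 0.93 to 1.28 in the other groups. The geometric mean signal of the hybridisation controls, which are added in a fixed amount, was 232 and 257 in WT stage 6.0, against 440 and 411 in WT stage 3.9. In the 3 lines it ran from 183 to 365, both on coi1 arrays. These measures differed between the WT stages, and their part in the results below was not tested. In these leaf samples a change in the make-up of cells and a change of RNA per cell cannot be told apart.

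Of the 5 genes 4 rose with stage in WT leaves, beside 20.2% of all tested probe sets. GAMMA-VPE rose by 3.13 times and CATHB3 by 2.50 times. BETA-VPE rose by 3.76 times, a size that moved with the constant added to its signals, and it entered the tests only through stage 6.0 arrays. ALPHA-VPE rose by an amount set largely by the constant added to its dim signals. The ALPHA-VPE call was lost with stock as a replicate block (limma adjusted p = 0.0654) and in the fit of the 2 groups (adjusted p = 0.0566). RD19C did not pass the test. In NahG, ein2 and coi1 leaves at stage 6.0, 0 of the 5 passed the test against WT leaves of that stage. Of all tested probe sets, 9.11% passed in NahG, 0.123% in ein2 and 1.01% in coi1. Among the lines ALPHA-VPE alone passed, with a level in NahG leaves above that in ein2 leaves (7.53% of probe sets passed) and coi1 leaves (11%). It entered the tests only through these NahG signals, and both calls were lost when single arrays were left out.

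**Figure D1:**
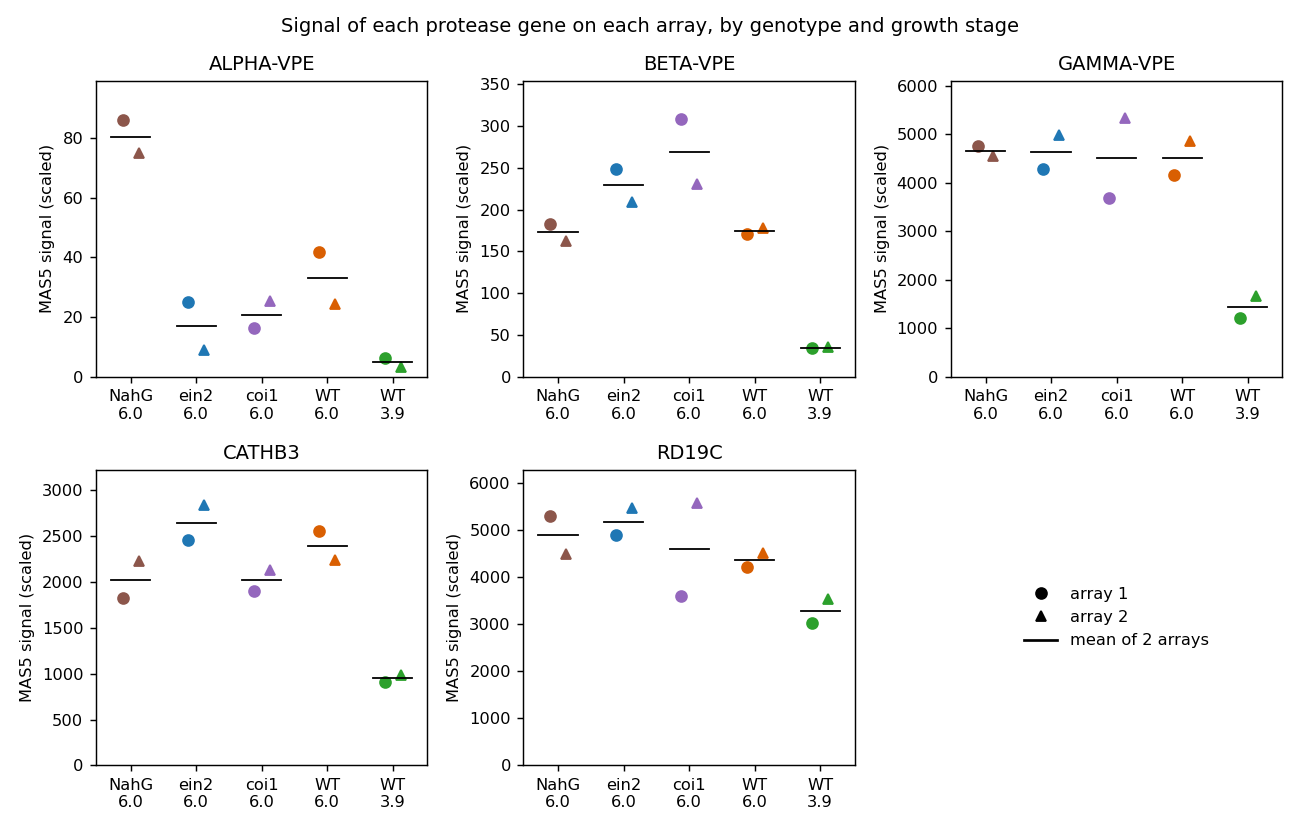
Scaled MAS5 signal (vertical axis, linear, arbitrary units) of each gene on each array, by genotype and stage (horizontal axis); circles are array 1, triangles array 2 and lines the mean of the 2. For each gene the 8 stage 6.0 arrays lie above both stage 3.9 arrays, which was so for 20.1% of tested probe sets. The margin for RD19C is narrow, at 3604 against 3531. ALPHA-VPE is highest on the NahG arrays, at 86.0 and 75.1, and under the filter's 50 on all others. Scales differ between panels and levels of different genes cannot be compared.

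The first comparison asks which genes differ between WT leaves at stage 6.0 and WT leaves at stage 3.9. Of the 5 genes 4 rose and 0 fell, beside 20.2% of tested probe sets that rose and 17.2% that fell. ALPHA-VPE and BETA-VPE entered the tests only through arrays of stage 6.0, so this count is not independent of the filter. A gene passed at an adjusted p under 0.05 (limma across 12184 probe sets, Benjamini-Hochberg adjustment), and differences are on the log2(signal + 16) scale with the standard error after ±.

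BETA-VPE had signals of 171 and 178 in WT leaves at stage 6.0, against 34.3 and 35.2 in WT leaves at stage 3.9. It reached the filter's 50 only at stage 6.0, so this difference is not independent of the filter. With no filter the limma adjusted p was 9.45e-05. The 2 arrays of each stage were close together and the stages did not overlap. The log2 difference was 1.91 ± 0.18, a 3.76-fold rise (limma adjusted p = 2.08e-05), with a 95% interval of 1.51 to 2.31. The added 16 lowers the fold of dim probe sets, and the plain ratio of mean signals was 5.03. The log2 difference was 2.30 with 1 added and 1.27 with 64 added.

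GAMMA-VPE, the vegetative enzyme, had signals of 4152 and 4873 at stage 6.0, against 1211 and 1675 at stage 3.9. Array 1 was lower than array 2 at both stages. The rise was 1.65 ± 0.23 on the log2 scale, or 3.13-fold (limma adjusted p = 0.00026, interval 1.15 to 2.15).

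ALPHA-VPE had signals of 41.8 and 24.3 at stage 6.0, against 6.36 and 3.33 at stage 3.9. All 4 signals were under the filter's 50, and the files give no detection calls. The log2 difference was 1.21 ± 0.31 (limma adjusted p = 0.0105, interval 0.53 to 1.90), which is 2.32-fold with the added 16, while the ratio of mean signals was 6.82. The size rests on the added constant: the log2 difference was 2.54 with 1 added and 0.49 with 64 added. With stock as a replicate block the adjusted p was 0.0654, with only the 2 groups in the fit it was 0.0566, and without array 1 of WT stage 6.0 it was 0.0794, so the call was lost in each of these limma fits.

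CATHB3, the cathepsin B-like protease, had signals of 2558 and 2238 at stage 6.0, against 914 and 983 at stage 3.9. The stages were well apart. The rise was 1.32 ± 0.18 on the log2 scale, or 2.50-fold (limma adjusted p = 0.000268, interval 0.92 to 1.73).

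RD19C, the other papain-like member, had signals of 4215 and 4511 at stage 6.0, against 3016 and 3531 at stage 3.9. The arrays of the stages did not overlap, but the log2 difference of 0.42 ± 0.22 did not pass (limma adjusted p = 0.165, interval -0.07 to 0.90). Scaling decided this gene: the difference was 1.03 after quantile normalization (limma adjusted p = 3.65e-05) and 1.22 after scaling to the hybridisation controls (adjusted p = 3e-05). The hybridisation controls also moved the median of all probe sets to 0.72, against 0.05 in the standard scaling, and split the calls into 3833 that rose and 447 that fell, against 2461 and 2099. Relative to that median RD19C differed by 0.50, CATHB3 by 1.39, GAMMA-VPE by 1.72, BETA-VPE by 1.79 and ALPHA-VPE by 0.81.

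The stage difference was taken within each stock of WT plants as well. BETA-VPE differed by 1.90 on the log2 scale in stock N933 and by 1.92 in stock N1644. GAMMA-VPE differed by 1.76 in N933 and 1.53 in N1644. CATHB3 differed by 1.47 in N933 and 1.17 in N1644. ALPHA-VPE differed by 1.37 in N933 and 1.06 in N1644, and RD19C by 0.48 in N933 and 0.35 in N1644. Each gene was higher at stage 6.0 in both stocks, with 1 array behind each value and no test.

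The second set of comparisons asks whether stage 6.0 leaves labelled NahG, ein2 or coi1 differ from WT leaves of stage 6.0. In NahG 0 of the 5 genes passed, beside 9.11% of tested probe sets. In ein2 0 of 5 passed beside 0.123%, and in coi1 0 of 5 beside 1.01%, so few probe sets passed in these 2 lines at all. The lowest unadjusted limma p was 0.00842 in NahG (ALPHA-VPE), 0.074 in ein2 (BETA-VPE) and 0.00947 in coi1 (BETA-VPE). How many of all tested probe sets had an unadjusted p as low was not counted, and ALPHA-VPE entered the tests only through its NahG signals. Scaling to the hybridisation controls left 0 of the 5 past the threshold in each line; it split the calls into 3 up and 45 down in ein2, against 6 and 9 in the standard scaling, and into 9 up and 104 down in coi1, against 47 and 76. Quantile normalization split those in ein2 into 9 up and 8 down.

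ALPHA-VPE had signals of 86.0 and 75.1 in NahG leaves and 41.8 and 24.3 in WT leaves of stage 6.0. The groups did not overlap. The log2 difference was 1.0 ± 0.31 (limma adjusted p = 0.0742, interval 0.31 to 1.68), and the ratio of mean signals was 2.44. The call depended on the settings: the adjusted p was 0.0232 with 64 added to the signals, 0.0431 without the mean-variance trend and 0.0406 with only the 2 groups in the limma fit. Because ALPHA-VPE entered the test through its NahG signals, these values are not independent of the filter.

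In ein2 leaves ALPHA-VPE had signals of 25.0 and 8.87, against 41.8 and 24.3 in WT leaves. These overlapped, with a log2 difference of -0.60 and an interval of -1.28 to 0.09 (limma adjusted p = 0.554). In coi1 leaves the signals were 16.3 and 25.4, also overlapping with WT. The difference there was -0.40 with an interval of -1.09 to 0.29 (limma adjusted p = 0.602).

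BETA-VPE had signals of 308 and 231 in coi1 leaves, against 171 and 178 in WT leaves of stage 6.0. Both coi1 arrays lay above both WT arrays. The log2 difference of 0.57 ± 0.18 did not pass (limma adjusted p = 0.18, interval 0.17 to 0.97). In ein2 leaves the signals were 249 and 210, again above both WT arrays, with a difference of 0.36 and an interval of -0.04 to 0.76 (limma adjusted p = 0.539). In NahG leaves they were 183 and 163, with a difference of -0.02 and an interval of -0.42 to 0.38 (adjusted p = 0.969).

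GAMMA-VPE had signals of 4765 and 4554 in NahG leaves, 4295 and 4988 in ein2 leaves and 3690 and 5339 in coi1 leaves, against 4152 and 4873 in WT leaves of stage 6.0. The 2 coi1 arrays were farther apart than the arrays of any other stage 6.0 group. The log2 differences from WT were 0.05 in NahG (interval -0.45 to 0.55), 0.04 in ein2 (-0.46 to 0.54) and -0.02 in coi1 (-0.52 to 0.48). These intervals leave room for changes of up to about 0.5 on the log2 scale in either direction. The limma adjusted p-values were 0.928, 0.965 and 0.984 in the same order.

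CATHB3 had signals of 1823 and 2231 in NahG leaves and 1907 and 2136 in coi1 leaves, against 2558 and 2238 in WT leaves of stage 6.0. Both lines were below both WT arrays by a narrow margin. The log2 difference was -0.24 in each line, with an interval of -0.65 to 0.16 and limma adjusted p-values of 0.471 in NahG and 0.587 in coi1. In ein2 leaves the signals were 2458 and 2837, with a difference of 0.14 and an interval of -0.26 to 0.55 (adjusted p = 0.839).

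RD19C had signals of 5296 and 4493 in NahG leaves, 4890 and 5450 in ein2 leaves and 3604 and 5574 in coi1 leaves, against 4215 and 4511 in WT leaves of stage 6.0. As for GAMMA-VPE, the 2 coi1 arrays spanned the widest range. The log2 differences from WT were 0.16 in NahG (interval -0.32 to 0.65), 0.24 in ein2 (-0.24 to 0.73) and 0.04 in coi1 (-0.45 to 0.53), with limma adjusted p-values of 0.72, 0.741 and 0.964.

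**Figure D2:**
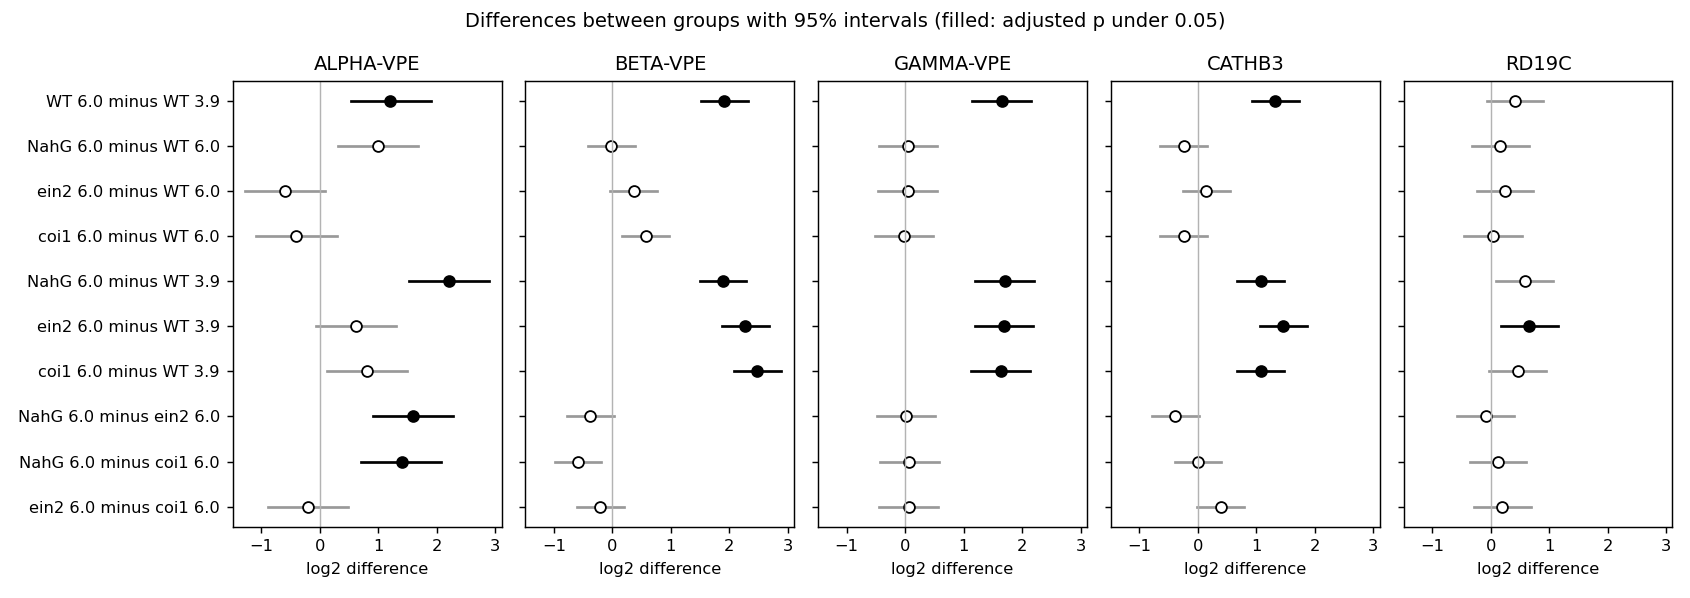
Log2 difference in signal (horizontal axis, log2(signal + 16)) with its 95% interval for each gene and each of the 10 comparisons (rows); filled points passed at an adjusted p under 0.05. BETA-VPE, GAMMA-VPE and CATHB3 passed in the 4 comparisons with WT stage 3.9 and in no other. ALPHA-VPE passed for WT stage 6.0 and NahG against WT stage 3.9, and for NahG against ein2 and against coi1. It entered the tests only through its NahG signals, and BETA-VPE only through its stage 6.0 signals. RD19C passed for ein2 against WT stage 3.9 alone.

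Among the 3 lines, ALPHA-VPE was the only 1 of the 5 genes that passed. It rose in NahG against ein2 by 1.59 ± 0.31 on the log2 scale (limma adjusted p = 0.00947), a comparison in which 7.53% of probe sets passed, and the ratio of mean signals was 4.76. It rose in NahG against coi1 by 1.40 ± 0.31 (limma adjusted p = 0.0151), where 11% passed, with a ratio of 3.87. Both results share the NahG arrays that admitted the gene to the test. Against ein2 the call was lost without array 1 of NahG (1.51, limma adjusted p = 0.102) or array 2 of ein2 (1.24, adjusted p = 0.0915). Against coi1 it was lost without any 1 of the 4 arrays compared. The limma adjusted p was 0.114 without array 1 of NahG (1.32), 0.0738 without array 2 of NahG (1.48), 0.14 without array 1 of coi1 (1.22) and 0.0558 without array 2 of coi1 (1.58). With 1 added to the signals it was 0.0585. The log2 differences were 0.84 against ein2 and 0.77 against coi1 with 64 added.

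BETA-VPE differed by -0.59 between NahG and coi1, with an interval of -0.99 to -0.19 (limma adjusted p = 0.0639). The NahG arrays, at 183 and 163, lay below the coi1 arrays, at 308 and 231. Between ein2 and coi1 0 of the 5 genes passed, beside 0.706% of probe sets, and the lowest unadjusted limma p was 0.0598 (CATHB3). CATHB3 came nearest, with signals of 2458 and 2837 in ein2 leaves against 1907 and 2136 in coi1 leaves and a difference of 0.39 (interval -0.02 to 0.79, limma adjusted p = 0.329). Under the hybridisation control scaling the calls split into 237 up and 175 down for NahG against ein2, where the standard scaling gave 407 and 510, and into 305 and 245 for NahG against coi1, where it gave 613 and 730.

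The lines at stage 6.0 were also set against WT at stage 3.9, where genotype and stage cannot be told apart. These comparisons share the WT stage 3.9 arrays with the WT stage comparison. In NahG 4 of 5 genes rose, beside 15.9% of probe sets. In ein2 it was 4 of 5, beside 18.4%, and in coi1 3 of 5, beside 19.5%. The NahG count includes ALPHA-VPE, which entered the tests only through its NahG signals, so this count is not independent of the filter. BETA-VPE is in the counts of all 3 lines and entered only through stage 6.0 signals, so the same holds for each. All 8 stage 6.0 arrays lay above both stage 3.9 arrays for each of the 5 genes, which was so for 20.1% of tested probe sets.

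BETA-VPE rose by 1.89 on the log2 scale in NahG, 2.27 in ein2 and 2.48 in coi1 relative to WT stage 3.9 leaves, with limma adjusted p-values of 2.92e-05, 8.91e-06 and 5.63e-06. GAMMA-VPE rose by 1.70 in NahG, 1.69 in ein2 and 1.63 in coi1, and CATHB3 by 1.08 in NahG, 1.46 in ein2 and 1.08 in coi1. For these genes the 3 lines and WT leaves of stage 6.0 all lay above stage 3.9. ALPHA-VPE rose by 2.21 ± 0.31 in NahG (limma adjusted p = 0.00035), the group that admitted it to the test. The WT stage 3.9 signals of 6.36 and 3.33 are far under the filter's 50, and the size rests on the added constant: the log2 difference was 3.85 with 1 added and 1.07 with 64 added. In ein2 its difference was 0.62 (interval -0.07 to 1.30, limma adjusted p = 0.151), and in coi1 0.81 (interval 0.13 to 1.5, adjusted p = 0.0643).

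RD19C rose in ein2 relative to WT stage 3.9 leaves by 0.66 ± 0.22 (limma adjusted p = 0.0389). The differences of 0.58 in NahG (adjusted p = 0.0698) and 0.46 in coi1 (adjusted p = 0.133) did not pass. The ein2 call was lost without array 1 (0.55, limma adjusted p = 0.172) or array 2 (0.77, adjusted p = 0.0648) of WT stage 3.9, without array 1 (0.74, adjusted p = 0.0834) or array 2 (0.58, adjusted p = 0.181) of ein2, and without any 1 array of NahG or WT stage 6.0 (adjusted p 0.0512 to 0.0614). It was lost with no filter on low signals as well (adjusted p = 0.205). With quantile normalization RD19C passed in all 3 lines, with differences of 1.08 in NahG, 1.03 in ein2 and 1.03 in coi1. Scaling to the hybridisation controls moved the median of all probe sets to 0.60 in NahG, 0.46 in ein2 and 0.69 in coi1. In that scaling 2381 probe sets rose and 351 fell in NahG (1934 and 1867 in the standard one), 1827 and 489 in ein2 (2242 and 1963), and 3258 and 424 in coi1 (2373 and 1848).

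The order of the group means differed between genes. For ALPHA-VPE it was NahG (80.6), WT stage 6.0 (33.0), coi1 (20.8), ein2 (16.9) and WT stage 3.9 (4.84), and no pair of neighbours in it passed the test. For BETA-VPE it was coi1 (270), ein2 (229), WT stage 6.0 (175), NahG (173) and WT stage 3.9 (34.7), and the last step alone passed. For GAMMA-VPE it was NahG (4659), ein2 (4642), coi1 (4514), WT stage 6.0 (4512) and WT stage 3.9 (1443). For CATHB3 it was ein2 (2647), WT stage 6.0 (2398), NahG (2027), coi1 (2021) and WT stage 3.9 (948.6). In both, the step down to stage 3.9 was the one that passed. For RD19C it was ein2 (5170), NahG (4895), coi1 (4589), WT stage 6.0 (4363) and WT stage 3.9 (3273), with no step past the test.

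The genes also differed in how far they moved over the 10 arrays. The root mean square deviation from the gene's own mean on the log2 scale was 0.89 for BETA-VPE, 0.77 for ALPHA-VPE, 0.69 for GAMMA-VPE, 0.53 for CATHB3 and 0.28 for RD19C. Likeness of 2 genes was measured as the root mean square difference between their log2 values over the 10 arrays after centring each gene, among 6451 other probe sets that name 1 gene. All of these profiles share the 10 arrays, so likeness is a description.

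From GAMMA-VPE, CATHB3 ranked at place 30 of 6451, with 0.281 between them, BETA-VPE at place 211 (0.394) and ALPHA-VPE at place 2074 (0.647). From BETA-VPE, GAMMA-VPE ranked at place 55, and from CATHB3 it ranked at place 188. A flatter profile such as that of CATHB3 can give a smaller distance, so these places describe each gene's own ranking and do not order the pairs.

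The 3 genes most like GAMMA-VPE were APS4, an ATP sulfurylase (0.149), CHX16, a cation exchanger (0.183), and AT1G23040 (0.188). Those most like ALPHA-VPE were AT3G56200 (0.282), PDC2, a pyruvate decarboxylase (0.284), and AT2G28200 (0.324). PDC2 had log2 differences of 1.01 in NahG, -0.79 in ein2 and -0.40 in coi1 from WT leaves of stage 6.0, beside 1.0, -0.60 and -0.40 for ALPHA-VPE. In the same order they were 0.76, -0.46 and -0.32 for AT3G56200 and 0.36, -0.91 and -0.69 for AT2G28200. All 3 were picked for likeness over these same arrays, so nearness of such values follows from the choice. The genes most like BETA-VPE were AT5G23750 (0.239), AT1G22160 (0.243) and AT5G50360 (0.251). For CATHB3 they were AT3G18560 (0.12), AT1G13990 (0.132) and AT5G53420 (0.15), and for RD19C AT1G63830 (0.09), AT4G28290 (0.123) and AT3G58530 (0.13). As a flatter profile can give a smaller distance, these distances are not compared between the 5 genes.

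**Figure D3:**
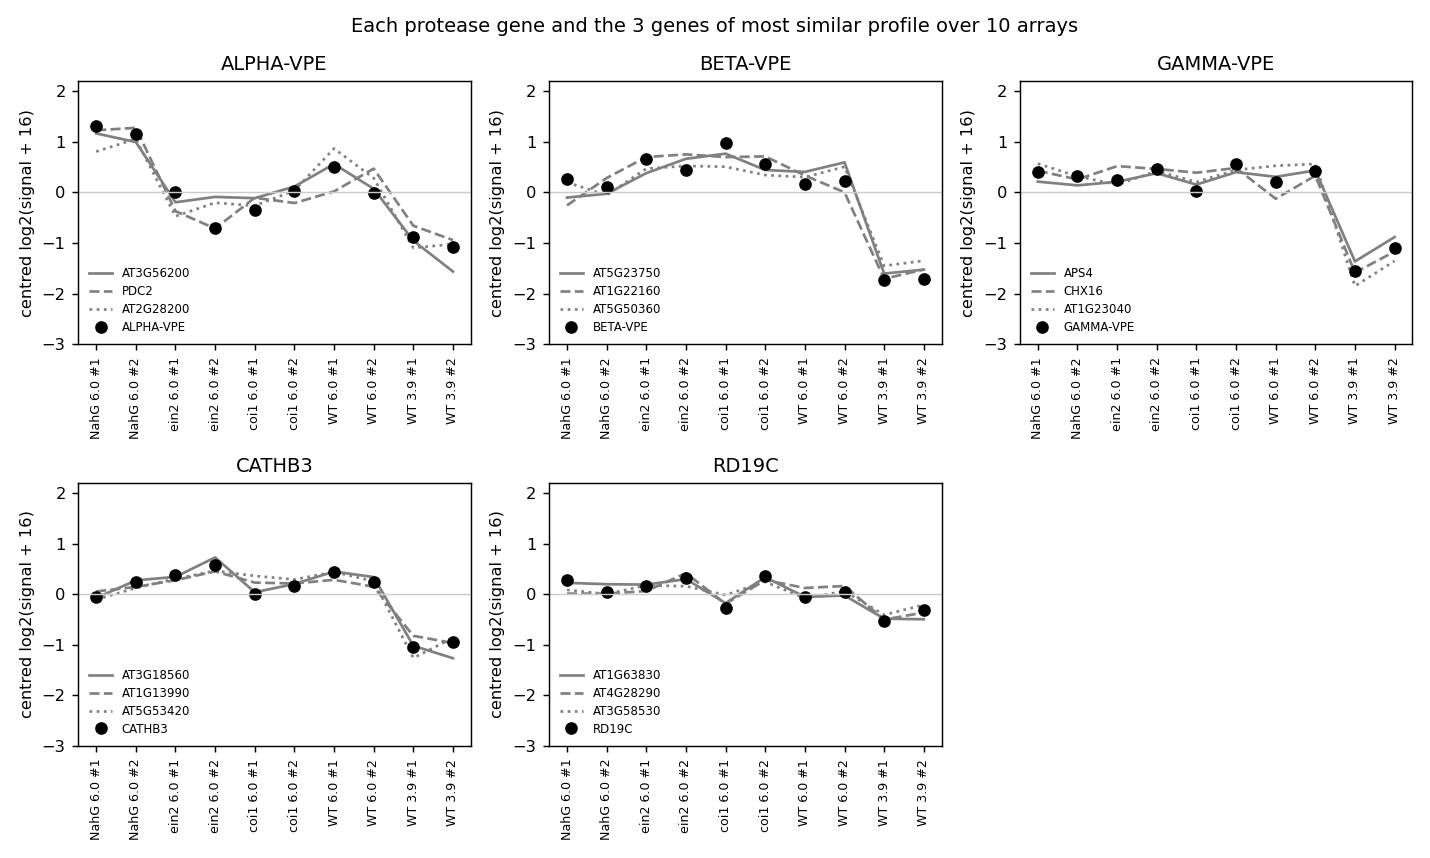
Centred log2(signal + 16) (vertical axis) on each of the 10 arrays (horizontal axis) for each gene (points) and the 3 genes of most similar profile (lines). BETA-VPE, GAMMA-VPE and CATHB3 drop on the 2 WT stage 3.9 arrays at the right, ALPHA-VPE is also high on the 2 NahG arrays at the left, and RD19C varies least.

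Related genes were described from lists of the same protease families, their inhibitors and the vacuole. The legumain list holds 5 genes, all with a named probe set. DELTA-VPE, known from the seed coat, was not tested, with signals between 13.2 and 26.5 on the 10 arrays. The last gene of the list, AT1G08750, had signals of 152 and 150 in WT leaves at stage 6.0, against 175 and 148 at stage 3.9. Its log2 difference was -0.08 ± 0.16 (limma adjusted p = 0.724) in the standard scaling, and 0.64 under the hybridisation control scaling. So 3 of the 4 tested genes of the list rose with stage, all of them among the 5 genes, with a median of 1.43 against 0.05 over all probe sets, of which 20.2% rose. Of these, ALPHA-VPE was admitted only by NahG signals and BETA-VPE only by stage 6.0 signals. The count is therefore not independent of the filter, and the ALPHA-VPE call was lost in some fits.

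Of 32 papain-like proteases 19 had a named probe set and 9 were tested. With stage 2 rose, 1 fell and 6 did not pass, with a median of 0.10. These shares are near those of all tested probe sets, of which 20.2% rose and 17.2% fell. AT1G02305 rose beside CATHB3, with signals of 1499 and 1136 at stage 6.0 against 640.7 and 842.8 at stage 3.9 (0.81 ± 0.21, limma adjusted p = 0.0122). That call was lost without array 1 of WT stage 6.0 (0.62, adjusted p = 0.104) or array 1 of WT stage 3.9 (0.62, adjusted p = 0.0768). AT3G19400 fell, with signals of 80.6 and 96.8 at stage 6.0 against 152 and 171 at stage 3.9 (-0.77 ± 0.19, limma adjusted p = 0.00813). Its call was lost without array 1 of WT stage 6.0 (-0.65, adjusted p = 0.0637) and under hybridisation control scaling (-0.06, adjusted p = 0.918). AT3G43960 differed by -0.83 (limma adjusted p = 0.195).

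Against WT leaves of stage 6.0, 1 of the 9 tested papain-like genes rose in NahG leaves, beside 3.61% of all tested probe sets. The median of the 9 was -0.24. The gene that rose was AT3G49340, with signals of 261 and 199.8 in NahG leaves against 51.1 and 35.3 in WT leaves of stage 6.0. The log2 difference was 2.06 ± 0.35 (limma adjusted p = 0.00414), and 1.88 (adjusted p = 0.0569) without array 1 of NahG. Its stage difference of -0.47 did not pass (adjusted p = 0.331). Array 1 of WT stage 3.9 had 113 and array 2 had 34.8, and the stage difference was 0.21 without array 1 and -1.14 (limma adjusted p = 0.00557) without array 2.

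Vacuolar aspartic proteases have 3 genes in their list, and all 3 were tested. With stage 2 rose, beside 20.2% of all tested probe sets. APA1, an aspartic protease of the vacuole, had signals of 2935 and 2663 at stage 6.0, against 1355 and 1292 at stage 3.9, and rose by 1.07 ± 0.21 (limma adjusted p = 0.00208). AT4G04460 had 213 and 114 at stage 6.0, against 3.73 and 24.6 at stage 3.9, and rose by 2.61 ± 0.40 (adjusted p = 0.000511), or by 1.52 with 64 added to the signals. It was admitted to the tests only by its stage 6.0 signals. AT1G62290 had 6.54 and 45.5 at stage 6.0, against 41.8 and 135 at stage 3.9. Its difference of -1.33 did not pass (limma adjusted p = 0.0511), but passed with stock as a replicate block (adjusted p = 0.00386).

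Of 11 protease inhibitors 5 had a named probe set and 4 were tested, of which 1 rose with stage, beside 20.2% of all tested probe sets. AT5G05110 had signals of 850.1 and 679 at stage 6.0, against 192 and 225 at stage 3.9, and rose by 1.79 ± 0.22 (limma adjusted p = 0.000137). CYS1, a cystatin that inhibits papain-like proteases, differed by 0.28 (adjusted p = 0.392), SERPIN1, a serpin that inhibits the papain-like protease RD21, by 0.11 (adjusted p = 0.62), and AT5G47550 by -0.15 (adjusted p = 0.761). Removing array 1 of WT stage 6.0 moved AT5G47550 to -0.80 (limma adjusted p = 0.0474), and removing array 2 moved it to 0.49. CYS1 passed under the hybridisation control scaling alone (1.06, adjusted p = 0.0351).

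Subunits of the vacuolar proton pump, which acidifies the vacuole, had 2 of 7 genes measured: VHA-A2 differed by -0.07 and VHA-A3 by -0.30 with stage, and neither passed (limma adjusted p = 0.867 and 0.202). Both signs turned under hybridisation control scaling, to 0.67 and 0.48. AT1G62660, the 1 tested gene of 10 vacuolar proteins listed as possible substrates, had signals of 472 and 228 at stage 6.0, against 120.3 and 157 at stage 3.9, and rose by 1.17 ± 0.28 (limma adjusted p = 0.00737). Without array 1 of WT stage 6.0 this was 0.66 (adjusted p = 0.0544). In coi1 leaves it fell by 1.61 relative to WT leaves of stage 6.0, with signals of 103 and 90.5 (adjusted p = 0.0239), and the call was lost with no filter (adjusted p = 0.0685) and in the fit of the 2 groups (adjusted p = 0.0586). It was also lost without either coi1 array (adjusted p = 0.173 and 0.217), array 1 of WT stage 6.0 (-1.11, adjusted p = 0.0735), or either NahG array (adjusted p = 0.0521 and 0.0526). The metacaspase list (9 genes) and the vacuolar sorting list (11 genes) had 0 named probe sets.

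**Figure D4:**
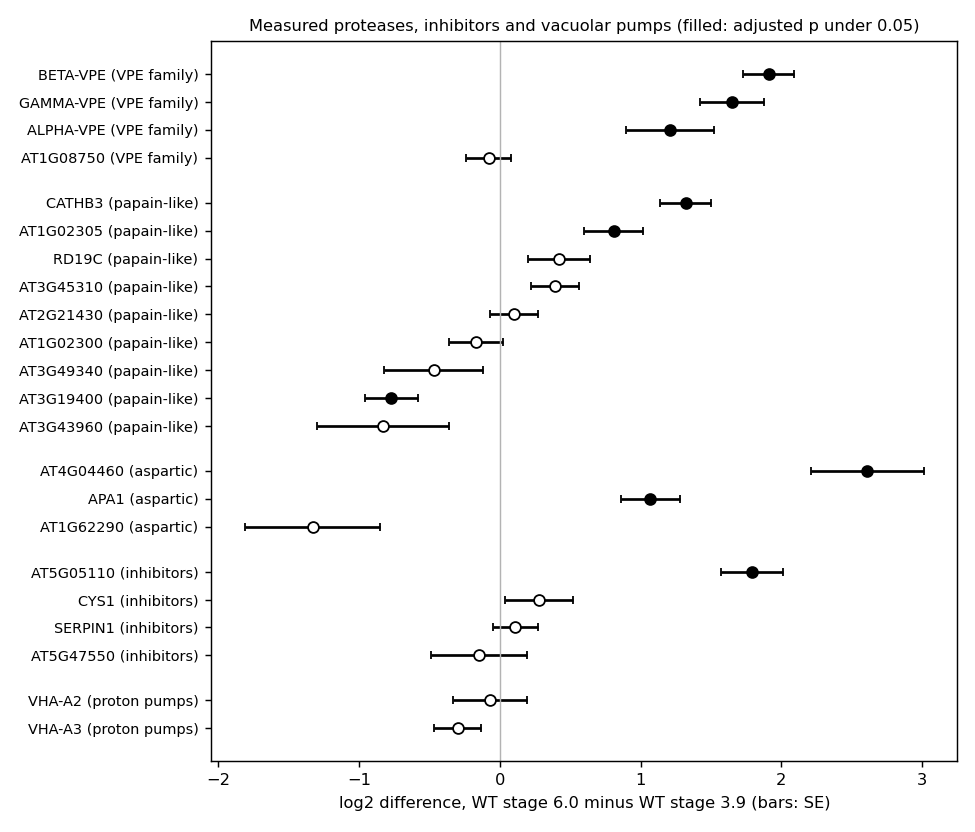
Log2 difference, WT stage 6.0 minus WT stage 3.9 (horizontal axis, log2(signal + 16)), for each tested gene of the legumain, papain-like, aspartic protease, inhibitor and proton pump lists (rows); bars are standard errors and filled points passed at an adjusted p under 0.05. Positive values are higher at stage 6.0, and within the papain-like list the values run from CATHB3 at 1.32 to AT3G43960 at -0.83.

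Marker genes of other tissues were read beside these results. Of 14 leaf photosynthesis markers 4 were tested and all 4 fell with stage: RCA, LHCB4.2, PSAN and PSAE-1, with a median log2 difference of -2.66, where 17.2% of all tested probe sets fell. RCA, which activates Rubisco, did not pass after quantile normalization (-0.24, limma adjusted p = 0.307), under hybridisation control scaling (-0.11, adjusted p = 0.779), or without array 1 of either WT group (adjusted p = 0.0787 for stage 6.0 and 0.0517 for stage 3.9). The 4 signals summed to 3558 and 4384 in WT leaves of stage 6.0, against 20112 and 13469 at stage 3.9, and the lowest single signal was 239, so none of the 4 leaf markers was near 0 at either stage. In NahG the sum was 6424 and 6102, against 3558 and 4384 in WT leaves of stage 6.0, and 3 of the 4 rose, where 3.61% of all tested probe sets rose. Of those, PSAN rose by 1.56, while LHCB4.2 and PSAE-1 lost the call when any 1 of the 4 arrays compared was left out (adjusted p 0.0712 to 0.161), with no filter, and under hybridisation control scaling. The levels of ALPHA-VPE and of LHCB4.2, PSAN and PSAE-1 were higher in NahG than in WT leaves of stage 6.0. RCA differed by 0.04 (limma adjusted p = 0.94). The ALPHA-VPE difference did not pass, and ALPHA-VPE was admitted by its NahG signals. The part of the marker differences in the ALPHA-VPE values was not tested. The 1 of 5 root markers with a named probe set, PYK10, had 118 and 95.8 in NahG leaves, against 12.5 and 29.4 in WT leaves of stage 6.0, and rose by 1.77 (limma adjusted p = 0.00146), or 1.02 with 64 added. PYK10 was admitted by its NahG signals as well. The lists of seed (10 genes), flower (7) and vascular (8) markers had 0 named probe sets, so these tissues were not checked.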

How the data were processed

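Leaf RNA was measured on 10 arrays in 5 groups of 2. The deposited values are intensities on a linear scale that the authors made with MAS5, per the submitters' processing notes; the sources used here state neither its version nor whether arrays of a line came from separate plants. The 2% trimmed mean of every array as deposited is 100. The p-values measure only the spread between these arrays, which may be technical outside the WT groups, and 2 arrays a group limit the precision.

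Arrays were rescaled to a 2% trimmed mean of 100 without the 64 control probe sets, which were not tested. A probe set needed a signal of at least 50 on 2 arrays to be tested (12184 did), and log2(signal + 16) of these rescaled values, which the authors had deposited on a linear scale, was fitted over all 10 arrays with limma 3.58.1 (lmFit, eBayes with trend) in R 4.3.3. There were 5 residual and 5.74 prior degrees of freedom, and the median standard error of a difference was 0.21. Adjusted p-values are Benjamini-Hochberg values over all tested probe sets within a comparison. A simulation of the stage comparison drew independent normal noise for 12184 probe sets and changed 200 of them. In it 73% of changes of 1 and 99% of changes of 2 on the log2 scale were recovered, and 7.53% of calls were false. The data gave 4560 calls in this comparison, so these rates need not hold for the data.

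Stock codes pair the WT arrays of the 2 stages. Deviations from the group means correlated at 0.0762 between same-stock arrays. Titles number the arrays of the 3 lines without saying what a number shares.

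Gene names are those of the platform annotation, where 13513 probe sets name 1 gene, 503 several and 8794 none. A gene without a named probe set is unnamed here. The genes, lists and tests were chosen with earlier results of these data known. Of each list, all tested genes were named where there were 6 or fewer, otherwise the 3 highest and 3 lowest in the stage comparison, and the 3 genes of most similar profile were named for each of the 5. Alternatives were other added constants (1 and 64), no filter or a minimum of 100, quantile normalization, deposited scaling, hybridisation control scaling (18 probe sets), no trend, fits of the 2 groups alone, a replicate block, and each array left out in turn, where a lone array was assumed to vary like the other groups. Leave-out and 2-group fits kept the probe sets of the standard filter. Figures used python 3.11.15 and matplotlib 3.10.9.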

Additional observations from a re-analysis of the deposited data

How the results depend on the processing

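The stage rises of BETA-VPE, GAMMA-VPE and CATHB3 kept their direction and stayed past the threshold under all alternatives run. For the 5 genes, direction and side of the threshold were kept in most other cases, and the exceptions follow as log2 differences, or as numbers of probe sets past the threshold. Except where the change lies in the number of probe sets or arrays used, the cause was not tested. The signs that turned belong to differences that did not pass in either setting. ALPHA-VPE has no value with a minimum signal of 100, which it did not reach.

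ALPHA-VPE rose with stage by 1.21 in the fit of the 2 groups (limma adjusted p = 0.0566) and by 1.21 with stock as a replicate block (adjusted p = 0.0654), past the threshold in neither. The block changed no other stage call of the 5 genes. For the 3 lines, where the labels do not say what a number shares, the fit paired by number as a replicate block gave -0.59 for BETA-VPE in NahG against coi1 (adjusted p = 0.0294) and raised the calls to 1446 for NahG against ein2 (from the standard 917), to 2246 for NahG against coi1 (1343) and to 691 for ein2 against coi1 (86). Deviations of same-numbered arrays correlated at 0.337 for NahG and ein2, -0.133 for NahG and coi1 and 0.216 for ein2 and coi1. The fit of 2 groups gave 2140 calls for NahG against coi1 and 500.0 for ein2 against coi1, and let BETA-VPE pass in NahG against coi1 (-0.59, adjusted p = 0.0484), ALPHA-VPE in NahG against WT stage 6.0 (1.0, adjusted p = 0.0406) and RD19C in NahG against WT stage 3.9 (0.58, adjusted p = 0.0396).

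Without the trend ALPHA-VPE passed in NahG against WT stage 6.0 (1.0) and in coi1 against WT stage 3.9 (0.81). With 64 added it passed in NahG against WT stage 6.0 (0.58), and PYK10 changed sign with stage (0.008). With 1 added ALPHA-VPE passed in coi1 against WT stage 3.9 (1.92) and no longer passed in NahG against coi1 (1.93). With no filter RD19C no longer passed in ein2 against WT stage 3.9 (0.66), and 3 probe sets passed in ein2 against WT stage 6.0, 37 in coi1 against WT stage 6.0 and 43 in ein2 against coi1, against 15, 123 and 86 with the filter.

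After quantile normalization RD19C passed with stage (1.03) and against WT stage 3.9 in NahG (1.08) and coi1 (1.03), and ALPHA-VPE passed in coi1 against WT stage 3.9 (0.88). Signs turned against WT stage 6.0 for BETA-VPE (0.037) and GAMMA-VPE (-0.02) in NahG, for GAMMA-VPE (-0.14), CATHB3 (-0.066) and RD19C (-0.005) in ein2, and for RD19C in coi1 (-0.005). They also turned for GAMMA-VPE (-0.11) and RD19C (0.0, with all digits lost to rounding) in ein2 against coi1, for RD19C in NahG against ein2 (0.048) and for PYK10 with stage (0.13).

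Under hybridisation control scaling RD19C passed with stage (1.22) and against WT stage 3.9 in NahG (1.28) and coi1 (1.17), and ALPHA-VPE in coi1 against WT stage 3.9 (1.04). Signs turned against WT stage 6.0 for GAMMA-VPE in NahG (-0.05), for GAMMA-VPE (-0.27), CATHB3 (-0.16) and RD19C (-0.064) in ein2, and for RD19C in coi1 (-0.044). They turned for GAMMA-VPE (-0.16) and RD19C (-0.02) in ein2 against coi1 and for RD19C in NahG against ein2 (0.12). With stage they turned for AT1G08750 (0.64), AT3G49340 (0.14), AT5G47550 (0.59), VHA-A2 (0.67), VHA-A3 (0.48) and PYK10 (0.42). Calls numbered 431 for NahG and 48 for ein2 against WT stage 6.0, 2316 for ein2 against WT stage 3.9, 412 for NahG against ein2 and 550.0 for NahG against coi1, against 1110, 15, 4205, 917 and 1343 in the standard scaling.

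With each array left out in turn, ALPHA-VPE ranged from 0.95 to 1.48 with stage (lost without array 1 of WT stage 6.0), 0.64 to 0.99 in coi1 against WT stage 3.9 (past the threshold without array 2 of ein2, adjusted p = 0.0452), 1.24 to 1.96 in NahG against ein2 (lost without array 1 of NahG or array 2 of ein2), 1.22 to 1.58 in NahG against coi1 (lost without any 1 of the 4 arrays) and -0.56 to 0.16 in ein2 against coi1. BETA-VPE ranged from -0.093 to 0.057 in NahG against WT stage 6.0. GAMMA-VPE ranged, against WT stage 6.0, from -0.065 to 0.17 in NahG, -0.074 to 0.16 in ein2 and -0.28 to 0.25 in coi1. It ranged from -0.098 to 0.12 in NahG against ein2, -0.20 to 0.34 in NahG against coi1 and -0.21 to 0.33 in ein2 against coi1. CATHB3 ranged from -0.15 to 0.14 in NahG against coi1. RD19C ranged from -0.27 to 0.35 in coi1 against WT stage 6.0, and against WT stage 3.9 from 0.46 to 0.70 in NahG (past the threshold without array 1 or 2 of coi1, adjusted p = 0.0192 and 0.0196), 0.55 to 0.77 in ein2 (lost without any 1 array but those of coi1) and 0.14 to 0.77 in coi1 (past the threshold without array 1 of coi1). It ranged from -0.20 to 0.037 in NahG against ein2, -0.19 to 0.44 in NahG against coi1 and -0.11 to 0.52 in ein2 against coi1. With stage, AT1G08750 ranged from -0.19 to 0.028, AT3G49340 from -1.14 to 0.21, CYS1 from -0.009 to 0.57, AT5G47550 from -0.80 to 0.49, VHA-A2 from -0.14 to 0.006 and PYK10 from -0.34 to 0.33. AT3G43960 passed with stage without array 2 of WT stage 6.0 (-1.54), and AT1G62290 without that array (-2.05) or array 1 of WT stage 3.9 (-2.02).

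The number of calls then ranged, against WT stage 6.0, from 455 (without array 1 of NahG) to 1359 in NahG, from 0 (without array 1 of ein2) to 76 (without array 1 of WT stage 3.9) in ein2 and from 13 (without array 1 of coi1) to 308 (without array 1 of WT stage 3.9) in coi1. Against WT stage 3.9 it ranged from 2613 to 4171 in ein2 and from 2615 to 4223 in coi1, lowest without array 2 of that line. It ranged from 418 (without array 2 of ein2) to 1108 for NahG against ein2, from 592 (without array 1 of coi1) to 1703 for NahG against coi1, and from 11 (without array 1 of coi1) to 268 (without array 2 of WT stage 3.9) for ein2 against coi1. ALPHA-VPE signals lay between 3.33 and 41.8 on all arrays but those of NahG, so the limits of dim signals bear on it most.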
